A study of Rattus norvegicus with 8 samples.

Results

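The insulin-like growth factor (IGF) axis was described by 10 genes: the ligands Igf1 and Igf2, the receptors Igf1r and Igf2r, and the binding proteins Igfbp2, Igfbp3, Igfbp4, Igfbp5, Igfbp6 and Igfbp7. They were taken by symbol from the deposited table of 22601 gene names, and all 10 were found. All 10 also passed the filter on low counts that left 15763 genes to be tested. Polyadenylated RNA was measured in rat sciatic nerve at day 15 after chronic constriction injury (CCI), in which the nerve is loosely tied, or after sham surgery. Each group had 4 libraries, numbered here as in the sample titles. The labels give no strain, sex or age, nor do they tie libraries to separate animals. The p-values therefore rest on library-to-library spread, which may in part be technical. The series title concerns FGF4, HIF-1α and neuronal glycolysis in neuropathic pain. A sciatic nerve sample holds axons but not the cell bodies of neurons.

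IGF1 and IGF2 are secreted peptides that signal through the tyrosine kinase IGF1R, which activates PI3K and Akt and, in parallel, the Ras and MAPK pathway. IGF2R, the cation-independent mannose 6-phosphate receptor, takes up IGF2 for breakdown and carries newly made enzymes to the lysosome. The binding proteins hold IGFs in the extracellular space, lengthen their life and keep them from IGF1R until proteases such as PAPP-A release them. In rodent peripheral nerve, IGF1 is known to promote axon growth and Schwann cell survival, and macrophages and Schwann cells are known sources of it after injury.

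In the constricted nerve the transcripts for one ligand, one receptor and 2 binding proteins were higher, and those for the signalling receptor and 2 other binding proteins were lower. Igf1 was 3.94-fold higher, Igf2r 2.63-fold higher, Igfbp4 6.48-fold higher and Igfbp2, from almost no counts in sham, also higher. Igfbp6 was 5.35-fold lower, Igf1r 2.27-fold lower and Igfbp7 1.23-fold lower. Igf2, Igfbp3 and Igfbp5 did not pass the threshold, a Benjamini-Hochberg adjusted p under 0.05 in edgeR's quasi-likelihood test. Thus 7 of the 10 members were called, 4 higher and 3 lower in CCI. Of all 15763 tested genes 68.4% were called, 36.2% higher and 32.2% lower, so the share of members called was close to the background. Members called with at least a 2-fold change numbered 6 of 10, against 30.3% of all tested genes. The members were chosen with earlier results of these data known, so this contrast cannot show an excess. In 7 of 10 members the libraries of both groups did not overlap, as in 64.8% of all tested genes. The median log2 fold change was -0.14 over the members and 0.05 over all tested genes. In a whole nerve, fewer cells of a type and less RNA per cell cannot be told apart.

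**Figure D1:**
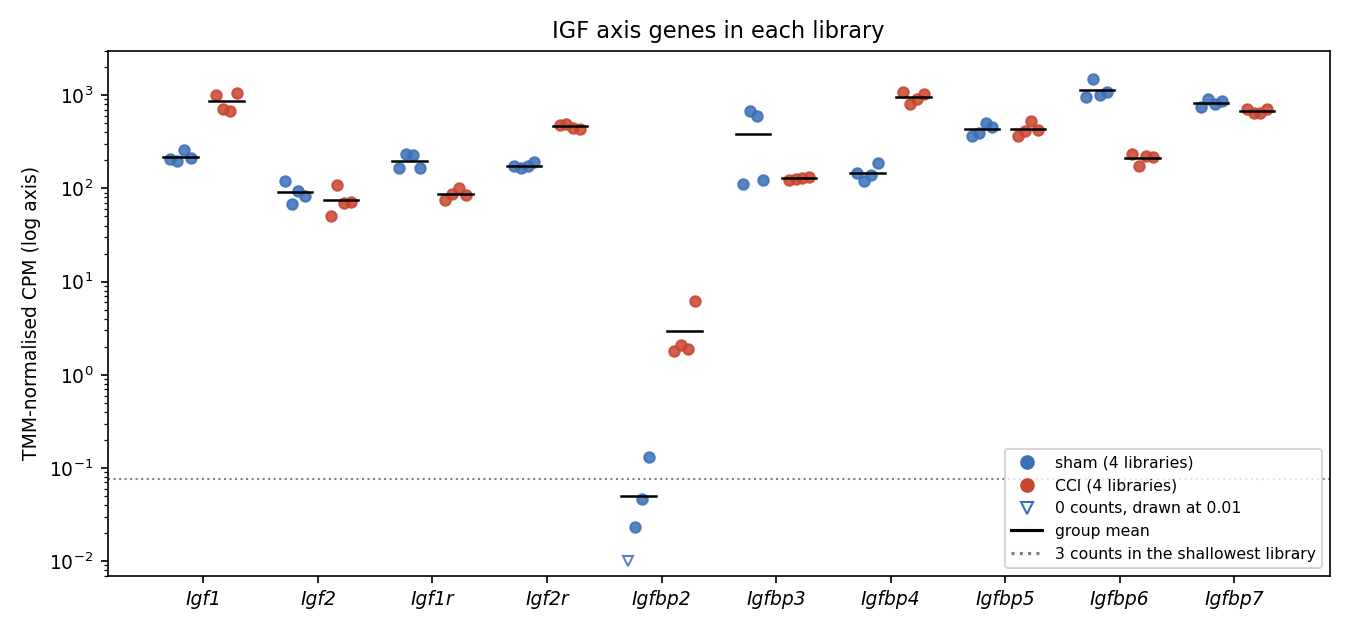
Level of each gene in each library, as TMM-normalised CPM on a log axis, with a point per library and a bar at the mean of 4. The groups lie apart for Igf1, Igf1r, Igf2r, Igfbp2, Igfbp4, Igfbp6 and, narrowly, Igfbp7, while 2 of the sham points of Igfbp3 stand above all others and 2 lie just below the CCI points.

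**Figure D2:**
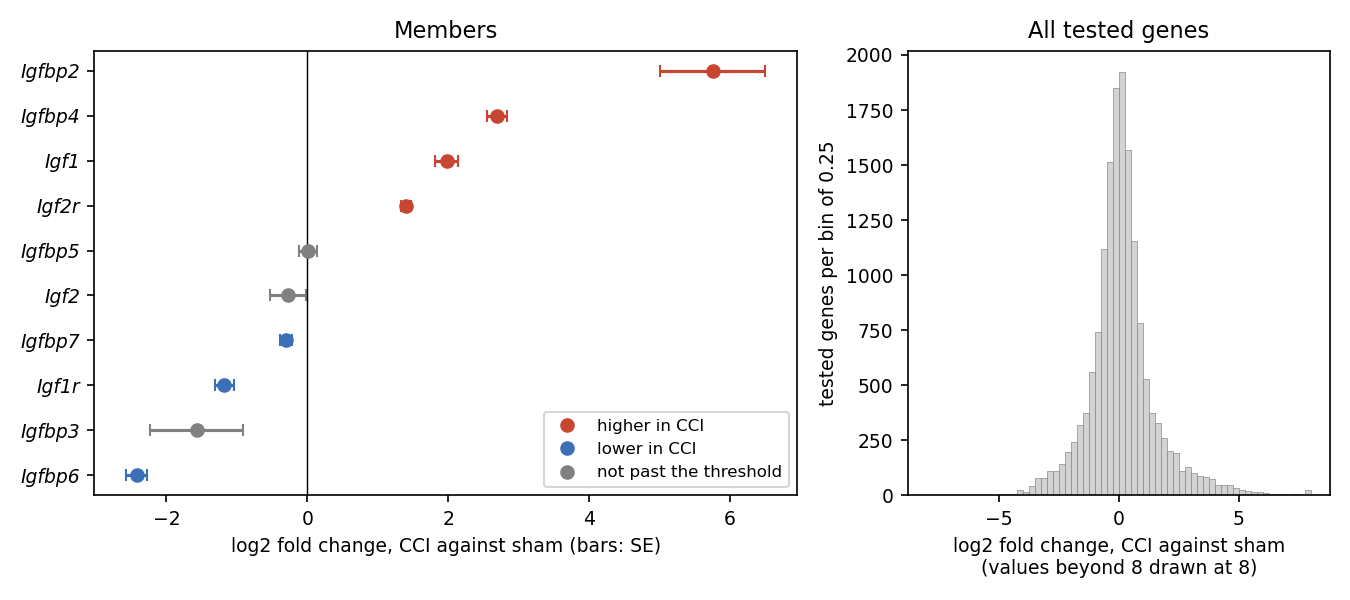
Left, log2 fold change of each member in CCI against sham, with bars of 1 standard error (SE). Right, the same quantity for all 15763 tested genes, whose median is 0.05. Members run from -2.42 for Igfbp6 to 5.76 for Igfbp2.

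Promoters are shown for the 4 abundant members with the largest called changes in either direction, from 250 bases before to 50 bases after the start site in RefSeq (assembly GRCr8). Letters were searched on both strands for CACGTG, the core of the E-box bound by the lysosomal regulator TFEB and by other helix-loop-helix factors, TATAAA, a core promoter element bound by TBP, and CAGCTG, another E-box. Each match is printed in capitals.
Igf1, chr7:24172282-24172581, plus strand: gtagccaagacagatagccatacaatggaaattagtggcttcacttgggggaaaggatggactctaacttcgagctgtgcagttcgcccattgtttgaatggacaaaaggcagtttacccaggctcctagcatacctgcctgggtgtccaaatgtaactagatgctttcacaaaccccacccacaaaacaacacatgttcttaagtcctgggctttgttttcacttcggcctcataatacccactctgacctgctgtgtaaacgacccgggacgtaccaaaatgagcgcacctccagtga
Igf2r, chr1:50526628-50526927, plus strand: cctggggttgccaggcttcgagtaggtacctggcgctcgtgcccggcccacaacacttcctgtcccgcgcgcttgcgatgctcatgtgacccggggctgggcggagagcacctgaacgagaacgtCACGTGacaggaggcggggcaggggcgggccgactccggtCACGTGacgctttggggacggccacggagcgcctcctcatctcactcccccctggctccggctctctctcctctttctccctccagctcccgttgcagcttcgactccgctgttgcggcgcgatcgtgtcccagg
Igfbp4, chr10:84491221-84491520, plus strand: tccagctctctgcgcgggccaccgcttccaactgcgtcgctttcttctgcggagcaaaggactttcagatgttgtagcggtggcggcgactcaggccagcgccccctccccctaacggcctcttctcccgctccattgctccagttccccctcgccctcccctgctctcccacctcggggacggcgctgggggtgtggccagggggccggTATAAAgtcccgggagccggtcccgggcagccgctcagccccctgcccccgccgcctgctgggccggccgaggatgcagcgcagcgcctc
Igfbp6, chr7:135154669-135154968, plus strand: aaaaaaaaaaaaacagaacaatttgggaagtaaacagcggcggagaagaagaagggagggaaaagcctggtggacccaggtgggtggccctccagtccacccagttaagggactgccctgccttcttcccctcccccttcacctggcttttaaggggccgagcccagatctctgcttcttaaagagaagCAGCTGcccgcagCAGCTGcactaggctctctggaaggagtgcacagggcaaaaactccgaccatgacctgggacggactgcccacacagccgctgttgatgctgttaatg
Among 33469 RefSeq promoters of this length, CACGTG was found in 6.42%, TATAAA in 14.2% and CAGCTG in 15.1%. In the Igf2r promoter CACGTG occurred at 125 and 85 bases before the start site, counted to its first base. Igfbp4 held TATAAA at 40 bases before it. Igfbp6 held CAGCTG at 61 and 48 bases before it. In the Igf1 window none of these letters occurred. Of the 11 promoters listed for the 10 members, CACGTG was also present in those of Igf1r and Igfbp2. The promoters of Igf2r, Igf1r and Igfbp2 held 68%, 78% and 66.7% G and C, against a median of 51.7% over all promoters. The 6.42% is therefore not a background matched to them. These are matches of letters, and no binding was measured.

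Of the ligands, Igf1 was higher in every CCI library. Levels are given in CPM, a gene's share of the library's TMM-normalised total scaled to the usual fixed size. The sham libraries 1 to 4 had 209, 196, 260 and 213 CPM, and the CCI libraries 1 to 4 had 1011, 711, 685 and 1046 CPM. The lowest CCI library was thus far above the highest sham library, and within CCI libraries 1 and 4 were above 2 and 3. The log2 fold change was 1.98 (SE 0.16; edgeR adjusted p = 2.42e-06), and 13.7% of all tested genes had a larger change in either direction. Igf1 ranked 2141 of 15763 tested genes by length-scaled level in sham and 433 in CCI.

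Igf2, which in rodents is imprinted and highly expressed before birth, did not pass. Its levels were 120, 68.6, 93.3 and 83.6 CPM in sham 1 to 4 and 50.03, 109, 70.04 and 72.1 CPM in CCI 1 to 4. The groups overlapped over most of their range, with the highest value in sham 1 and the lowest in CCI 1. The log2 fold change was -0.28 (SE 0.26; edgeR adjusted p = 0.359). Without CCI 2 it was -0.53 and passed (adjusted p = 0.0386), and without both CCI 2 and sham 2 it was -0.63 (adjusted p = 0.0150). CCI 2 held the most skeletal muscle RNA of all libraries, with a summed level of the 9 muscle markers of 6001 CPM, against 16.4 to 1176 in the other CCI libraries and 19.7 to 1064 in sham, and its part in the Igf2 value was not tested.

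The ratio of Igf1 to Igf2, which does not depend on how libraries are scaled, was higher in CCI. Per length it was 1.28, 2.10, 2.05 and 1.88 in sham 1 to 4 and 14.9, 4.78, 7.19 and 10.7 in CCI 1 to 4. All CCI values lay above all sham values, and the spread was much wider in CCI. The difference was 2.26 on the log2 scale, a 4.80-fold higher ratio (exact two-sided permutation test over libraries, p = 0.0286, also after adjustment over 3 ratios, the smallest that 4 against 4 allows). The Igf1 groups lay so far apart that the Igf2 values seen, however matched to libraries, could not make the ratios overlap. The test could therefore return no other p and adds nothing to the single-gene result of Igf1. Igf1 made up 64.1% ± 5.41 of the length-scaled sum of both ligands in sham and 88.9% ± 4.79 in CCI (SD, n = 4).

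The receptors moved in opposite directions. Igf1r, the signalling receptor, was at 164, 233, 227 and 168 CPM in sham 1 to 4 and at 75.7, 88.1, 102 and 84.1 CPM in CCI 1 to 4. Every CCI library was below every sham library. Its log2 fold change was -1.18 (SE 0.14; edgeR adjusted p = 3.28e-05). Igf2r, the scavenging and lysosomal sorting receptor, was at 174, 164, 172 and 191 CPM in sham and at 483, 487, 447 and 432 CPM in CCI. Its groups were tight and far apart, with a log2 fold change of 1.40 (SE 0.07), and it had the smallest adjusted p of the members (edgeR, 4.98e-08).

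Per length, Igf1r and Igf2r stood at like levels in sham and not in CCI. The ratio of Igf1r to Igf2r was 0.724, 1.09, 1.01 and 0.674 in sham 1 to 4 and 0.120, 0.139, 0.175 and 0.149 in CCI 1 to 4. The groups did not overlap, and the ratio was 5.93-fold lower in CCI (log2 difference -2.57, exact permutation p = 0.0286). Because both genes separated the groups, in opposite directions, this test could return no other p. It adds nothing to the single-gene results. Insr, the insulin receptor and paralog of Igf1r, also fell, from 99.6 ± 18.4 to 57.3 ± 3.46 CPM (edgeR adjusted p = 0.000166), by 0.80 on the log2 scale with an SE of 0.12. The ratio of Igf1r to Insr per length was 0.939, 0.915, 0.969 and 0.923 in sham and 0.673, 0.676, 0.825 and 0.697 in CCI. It was lower in every CCI library, by 0.39 on the log2 scale (exact permutation p = 0.0286), with CCI 3 nearest to sham. With any 1 sham library left out the same exact permutation test gave p = 0.0571, which is 2 of 35 relabellings. The log2 differences were then -0.37 to -0.40 and the groups still did not overlap.

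**Figure D3:**
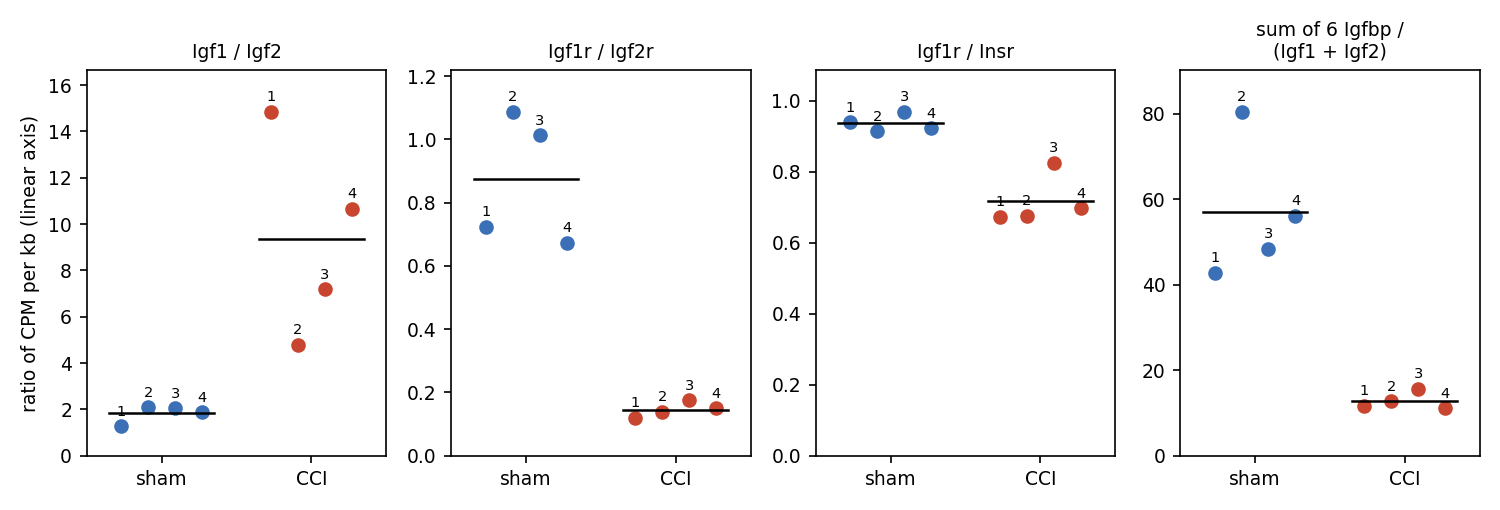
Ratios of length-scaled levels in each library, numbered by replicate, on linear axes that start at 0, with bars at the group means. The groups do not overlap in any panel. The summed binding proteins exceed the summed ligands by 42.8 to 80.6 times in sham and 11.1 to 15.7 times in CCI. The binding protein sum includes Igfbp7, which has low affinity for IGFs.

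Among the binding proteins that rose, Igfbp4, an inhibitor of IGF action that PAPP-A cleaves, had 146, 121, 139 and 186 CPM in sham 1 to 4. In CCI 1 to 4 it had 1082, 814, 909 and 1032 CPM. All CCI libraries exceeded all sham libraries several times over. On the log2 scale it rose by 2.70 (SE 0.14; edgeR adjusted p = 8.18e-08), a size exceeded by 7.67% of tested genes. By length-scaled level it went from rank 793 to rank 91 of all tested genes.

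Igfbp2, a binding protein whose RGD sequence can engage integrins, was nearly undetected in sham nerve. Its raw counts were 0, 1, 2 and 6 in sham 1 to 4 and 104, 109, 88 and 294 in CCI 1 to 4. Each CCI library was above each sham library, and CCI 4, at 6.17 CPM, was well above the 1.80 to 2.07 CPM of the other CCI libraries. In sham 1, a count of 0 allows a level of up to 0.0771 CPM, the equivalent of 3 counts. The summed counts, 595 in CCI and 9 in sham, gave a normalised ratio of 54.7 (95% counting interval 28.6 to 120, which covers counting error only). The fitted log2 fold change was 5.76 (SE 0.75; edgeR adjusted p = 6.01e-05), and 0.508% of tested genes had a larger change. Its size rested on few counts: the log2 fold change was 6.80 without sham 4, which held 6 of the 9 sham counts, and 5.10 without CCI 4, which held 294 of the 595 CCI counts. On log2(FPKM + 1) it was 1.64, and Igfbp2 passed in all 19 alternatives that tested it. Even so, at 2.30 ± 1.64 CPM per kilobase in CCI (SD, n = 4), Igfbp2 remained the least abundant member.

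Among those that fell, Igfbp6, which binds IGF2 in preference to IGF1, was at 967, 1480, 1001 and 1077 CPM in sham 1 to 4. In CCI 1 to 4 it was at 233, 176, 222 and 215 CPM. Sham 2 stood highest, and the groups were widely separated. On the log2 scale the change was -2.42 (SE 0.15; edgeR adjusted p = 2.48e-07). Igfbp6 ranked 25th among all tested genes by length-scaled level in sham and 185th in CCI.

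Igfbp7, a relative with low affinity for IGFs that is also found in vessel walls, was at 746, 905, 808 and 876 CPM in sham and at 707, 641, 637 and 717 CPM in CCI. The groups came close to each other without overlap. The log2 fold change of -0.30 (SE 0.08; edgeR adjusted p = 0.00687) was small, and 71.5% of tested genes had a larger one. It was -0.08 and did not pass with scaling by library totals alone (edgeR adjusted p = 0.414), a scaling that moves the median of all tested genes from 0.05 to 0.27. It was -0.24 without CCI 2 and sham 2 (edgeR adjusted p = 0.0649). Igfbp7 also did not pass with limma on log2 FPKM, so its call was lost in 4 of 20 alternatives.

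Igfbp3, the main IGF carrier of serum, divided the sham libraries. It was at 113, 684, 601 and 122 CPM in sham 1 to 4, against 124, 126, 128 and 134 CPM in CCI 1 to 4. Sham 1 and 4 lay just below the CCI libraries, while sham 2 and 3 lay far above them. The log2 fold change over all libraries was -1.57 (SE 0.67; edgeR adjusted p = 0.0743). It was 0.13 without sham 2 and 3 (adjusted p = 0.144) and -2.33 without sham 1 and 4 (adjusted p = 1.56e-07), so its sign depended on which sham libraries were used. It also passed without sham 1 (adjusted p = 0.0286), without sham 4 (0.0330) and in DESeq2 (log2 fold change -1.61). The same sham libraries were set apart in the whole transcriptome: the third principal component, with 4.06% of the variance, was at 24.7 and 27.2 in sham 2 and 3 and at -25.0 and -27.2 in sham 1 and 4. Igf1r followed the same order in sham, with 233 and 227 CPM in sham 2 and 3 against 164 and 168 in sham 1 and 4. Of the 10 summed marker levels, 5 also lay on one side in sham 2 and 3 and on the other in sham 1 and 4. This split was taken from the Igfbp3 values, and so few libraries often divide this way by chance. The share of all genes that divide so was not computed, so the count of 5 is description only. Skeletal muscle markers were at 1064 and 36.1 CPM in sham 2 and 3 against 19.7 and 20.2 CPM in sham 1 and 4, and macrophage markers at 633 and 806 against 540 and 623 CPM. In the opposite direction, fibroblast markers were at 27522 and 35481 against 35532 and 38439 CPM, adipocyte markers at 244 and 224 against 315 and 587 CPM, and lymphocyte markers at 0.377 and 0.837 against 1.00 and 1.46 CPM. Most of each fibroblast sum came from Col1a1, at 20274 and 27826 against 28331 and 30892 CPM. The part of these cell types in the Igfbp3 values was not tested. The labels do not say how sham libraries differed.

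Igfbp5, which binds extracellular matrix and is cleaved by PAPP-A and other proteases, was at 369, 397, 499 and 461 CPM in sham and at 366, 414, 532 and 419 CPM in CCI. The groups covered almost the same range. CCI against sham gave a log2 fold change of 0.00 (SE 0.13; edgeR adjusted p = 0.983), and its sign varied between settings.

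The order of levels per length differed between the groups. In sham nerve Igfbp6 led with 1302 ± 273 CPM per kilobase, followed by Igfbp7 with 755 ± 64.7 and Igfbp5 with 265 ± 36.4. Below these came Igfbp3 at 158 ± 127, Igfbp4 at 68.5 ± 12.6 and Igf1 at 29.3 ± 3.74 CPM per kilobase. Igf2r at 19.9 ± 1.28, Igf1r at 17.3 ± 3.23 and Igf2 at 16.6 ± 3.94 overlapped with each other, and Igfbp3 overlapped with both of its neighbours. In CCI nerve Igfbp7 led with 611 ± 38.6 CPM per kilobase, followed by Igfbp4 with 443 ± 56.0. Igfbp5 at 266 ± 43.5 and Igfbp6 at 243 ± 28.7 overlapped. Igf1 was at 115 ± 25.6, above Igfbp3 at 53.2 ± 1.78 and Igf2r at 52.5 ± 3.03, which overlapped. Igf2 was at 13.7 ± 4.49 and Igf1r at 7.62 ± 0.942 CPM per kilobase (all SD, n = 4).

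The makeup of the binding protein transcripts therefore differed between the groups. Igfbp6 took 52.3%, 54.8%, 46.0% and 50.5% of the length-scaled sum of the 6 binding proteins in sham 1 to 4 and 15.9%, 13.8%, 15.6% and 14.6% in CCI 1 to 4. Igfbp4 took 3.17%, 1.80%, 2.57% and 3.50% in sham and 29.7%, 25.7%, 25.7% and 28.2% in CCI. Both shares were far apart between groups. Igfbp7 took 29.9% ± 2.72 in sham and 37.8% ± 1.80 in CCI, Igfbp5 10.6% ± 1.93 and 16.5% ± 2.88, and Igfbp3 5.86% ± 4.32 and 3.30% ± 0.210 (SD, n = 4). The length-scaled sum of the 6 was 2548 ± 408 CPM per kilobase in sham and 1619 ± 105 in CCI. That of Igf1 and Igf2 was 45.9 ± 5.96 in sham and 129 ± 23.2 in CCI. The ratio of these sums was 42.8, 80.6, 48.5 and 56.2 in sham 1 to 4 and 11.7, 12.8, 15.7 and 11.1 in CCI 1 to 4, with no overlap. These are sums over chosen members and were not tested, and transcript levels do not give amounts of secreted protein. The sum of the 6 also includes Igfbp7, which has low affinity for IGFs, so the ratio is not a measure of IGF binding.

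**Figure D4:**
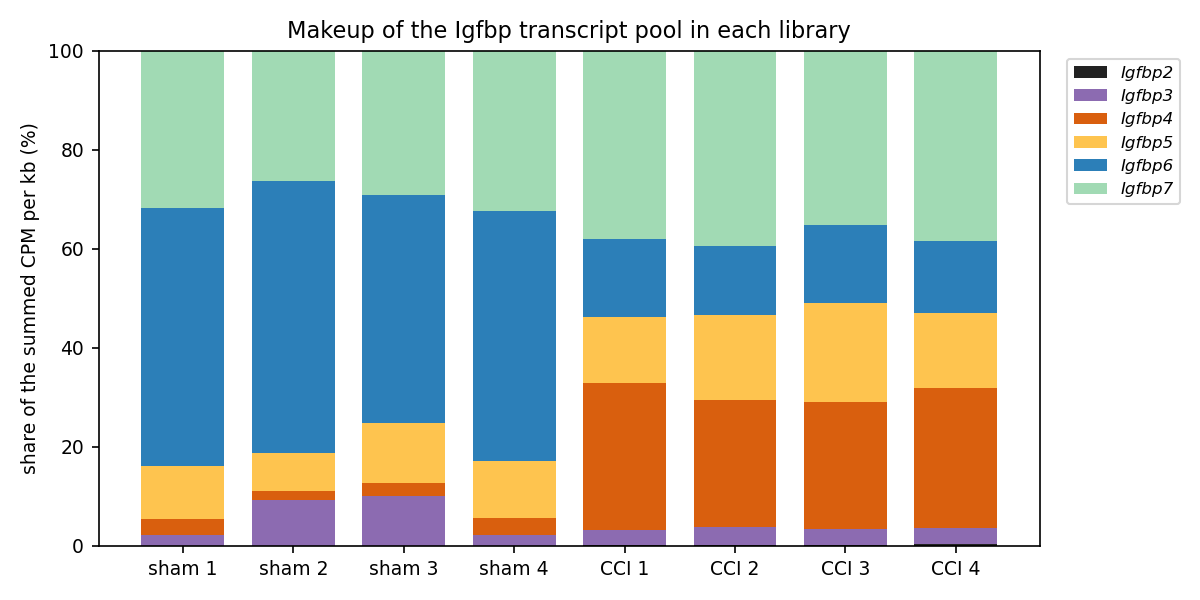
Share of each binding protein in the summed length-scaled level of the 6, 1 bar per library, adding up to 100%. Igfbp6 holds 46.0% to 54.8% in sham and 13.8% to 15.9% in CCI, Igfbp4 1.80% to 3.50% and 25.7% to 29.7%, and Igfbp3 is widest in sham 2 and 3.

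The other genes of the pathway were described by 9 lists with 85 genes. Of these, 82 were in the table and 75 were tested, of which 31 were higher, 27 were lower and 17 did not pass, with a median log2 fold change of 0.12. Those called were 77.3% of the tested genes, 41.3% higher and 36.0% lower, against 68.4%, 36.2% and 32.2% of all tested genes. The counts for each list below are to be read against these shares.

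Among proteases that release IGFs from binding proteins, and the inhibitors of these proteases, 6 of 9 tested genes were higher and 1 was lower (median log2 fold change 0.59). Adam12, a metalloprotease that cleaves IGFBP3 and IGFBP5, went from 17.3 ± 2.16 to 197 ± 35.4 CPM (edgeR adjusted p = 3.16e-08). Pappa, the main protease of IGFBP4, went from 6.68 ± 2.39 to 12.1 ± 2.11 CPM (edgeR adjusted p = 0.0102). The 6 include the PAPP-A inhibitors Stc1 and Stc2, named here after their values were seen. Stc1 was at 3.02 ± 0.638 CPM in sham, and at 4.54 ± 0.282 CPM in CCI (edgeR adjusted p = 0.0146). Stc2 rose from 0.139 ± 0.0629 to 0.583 ± 0.375 CPM (edgeR adjusted p = 0.00898). The call of Stc1 was lost without CCI 1 and without sham 1 and 4, and that of Stc2 without CCI 2 and sham 2 and without sham 2 and 3. The member that fell was Htra1, a serine protease of the matrix, from 602 ± 94.5 to 400 ± 39.5 CPM (edgeR adjusted p = 0.00103). The carriers Igfals, Igfbp1 and Igfbpl1 were near the detection limit in all libraries, with summed levels of 0.103 to 0.424 CPM in sham and 0.168 to 0.360 CPM in CCI, and were not tested. Igfals encodes the subunit that stabilises the large IGF complexes of serum.

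Other secreted proteins with an IGFBP-type module went both ways, 2 higher and 2 lower of 8 tested. Ctgf (Ccn2) was higher, rising from 93.0 ± 29.6 to 152 ± 19.7 CPM, and so was Esm1, an endothelial proteoglycan, with 8.09 and 11.5 CPM on average. Crim1 fell from 243 ± 48.5 to 116 ± 2.62 CPM and Wisp1 (Ccn4) from 44.5 ± 5.58 to 25.5 ± 5.28 CPM. The calls of Ctgf and Esm1 were both lost without sham 1 and 4, and that of Esm1 also without CCI 1 or 4, without sham 1, 3 or 4, with sample weights, with the replicate block and with a filter of 5 CPM.

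Of 6 tested related or accessory receptors, 2 were higher and 2 lower. Itgb3, an integrin chain, rose from 18.0 ± 2.71 to 37.6 ± 4.82 CPM, and Lrp1, an endocytic receptor that binds IGFBP3, from 2062 ± 182 to 2586 ± 35.2 CPM. Besides Insr, the integrin chain Itgav was called lower, going from 538 ± 70.5 to 440 ± 43.3 CPM. The call of Itgav was lost with library totals only (log2 fold change -0.06 in place of -0.29), with limma on log2 FPKM, and without CCI 1, 2 or 4, without sham 1, 3 or 4, or without both sham 1 and 4. With library totals only, 3 of the receptors were higher and 1 was lower. The one gained was M6pr, which also passed in DESeq2, with limma on log2(FPKM + 0.1), with the replicate block and without CCI 2 or CCI 3.

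Growth hormone, which drives Igf1 in liver, acts through Ghr and the JAK2 and STAT5 pathway. Of 7 genes of this input, 3 were higher and 1 was lower. The 1 that fell was the receptor Ghr, from 101 ± 6.64 to 70.1 ± 13.4 CPM (edgeR adjusted p = 0.00320). Cish, a STAT5-induced feedback inhibitor, rose from 2.48 ± 0.888 to 7.27 ± 0.919 CPM and the kinase Jak2 from 83.2 ± 3.94 to 150 ± 19.3 CPM. With library totals only, 5 were higher and 1 was lower. The third higher call, that of Socs2, was lost without CCI 3, CCI 4 or sham 1 and without sham 1 and 4.

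In the adaptor and PI3K, Akt and mTOR arm downstream of Igf1r, 12 of 21 tested genes were lower and 6 higher (median log2 fold change -0.26). With library totals only, 6 were lower and 9 higher. The lower call of Pik3ca was also lost without CCI 2, without CCI 2 and sham 2, and without sham 2 and 3. Largest among the falls were those of Pik3r1, the main regulatory subunit of PI3K, from 668 ± 43.7 to 219 ± 5.41 CPM, and of the docking protein Gab1, from 326 ± 19.4 to 141 ± 12.8 CPM. Both passed with every setting tried. The receptor substrates Irs1 and Irs2, named here after their values were seen, also fell, Irs1 from 121 ± 6.48 to 74.9 ± 4.75 CPM and Irs2 from 146 ± 36.4 to 65.4 ± 4.91 CPM. The 6 that rose were Pik3cd, a catalytic subunit found mainly in leukocytes, from 16.7 ± 2.83 to 85.2 ± 4.56 CPM, the adaptor Shc1, from 105 ± 9.67 to 257 ± 25.7 CPM, and Pik3cb, Grb2, Akt1 and Mtor. Akt1 went from 155 ± 7.20 to 230 ± 5.26 CPM. Pik3cb was at 13.8 ± 1.36 and 32.8 ± 3.11 CPM, Grb2 at 36.3 ± 4.15 and 53.8 ± 12.2 CPM and Mtor at 94.2 ± 3.00 and 115 ± 2.72 CPM in sham and CCI.

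Of 15 negative regulators 7 were higher and 7 lower. One of the 7 higher calls, that of Tsc2 (log2 fold change 0.20, edgeR adjusted p = 0.0245; named after its values were seen), was lost in 11 of 20 alternatives, among them DESeq2, its size factors, and leaving out any 1 CCI library or sham 2 or 3. That of Eif4ebp1 was lost without sham 1 and 4. Inpp5d, a lipid phosphatase of blood cells, rose from 21.6 ± 1.91 to 93.1 ± 4.82 CPM, and the inhibitor Socs3 from 34.3 ± 7.93 to 142 ± 39.8 CPM. Grb14, which binds and inhibits the insulin receptor, fell from 59.8 ± 5.40 to 15.8 ± 2.15 CPM, and the transcription factor Foxo1, which Akt holds out of the nucleus, from 122 ± 10.8 to 60.1 ± 3.11 CPM.

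Of the 3 proteins that bind Igf2 mRNA, Igf2bp3 rose from 3.39 ± 0.259 to 5.02 ± 0.650 CPM, Igf2bp1 fell from 1.54 ± 0.437 to 0.610 ± 0.292 CPM, and Igf2bp2 had a sham mean of 20.8 ± 3.39 and a CCI mean of 19.1 ± 2.40 CPM and did not pass. The call of Igf2bp3 was lost without sham 1 and 4 and that of Igf2bp1 without sham 2 and 3 and with limma on log2(FPKM + 1). Among imprinted genes and regulators linked to Igf2, 4 of 6 tested genes were higher and 1 was lower. One of the 4, Peg3 (log2 fold change 0.28, edgeR adjusted p = 0.0187; named after its values were seen), lost its call without CCI 2, without sham 2, without sham 3 and without either pair that holds sham 2. Hmga2, a chromatin protein of the embryo, was at 0.0231 ± 0.0192 CPM in sham, below the equivalent of 3 counts, and at 7.28 ± 1.15 CPM in CCI. Dlk1, an imprinted membrane protein, went from 0.840 ± 0.392 to 11.3 ± 5.63 CPM. Cdkn1c, an imprinted inhibitor of the cell cycle, fell from 64.0 ± 12.1 to 35.8 ± 3.63 CPM.

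**Figure D5:**
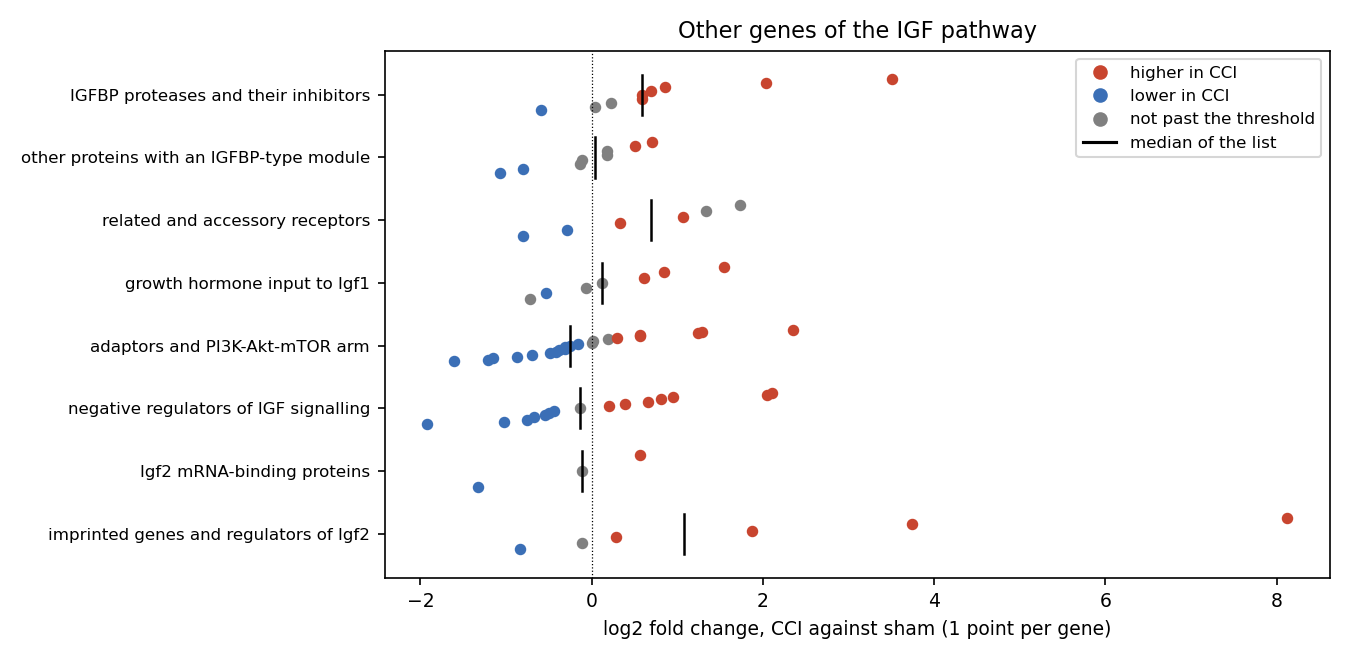
Log2 fold change in CCI against sham of each tested gene in 8 lists, with a bar at the median of each list. The adaptor arm has more lower (12) than higher (6) calls and the list of proteases and their inhibitors more higher (6, with the inhibitors Stc1 and Stc2) than lower (1), while the negative regulators have 7 of each.

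Markers of several cell types also differed between CCI and sham. Of 10 macrophage markers 9 rose, with summed levels of 540 to 806 CPM in sham and 2136 to 2486 CPM in CCI. Mrc1 and Cd163 led in sham with 169 and 201 CPM, and Csf1r and Mrc1 led in CCI with 503 and 486 CPM. All 8 myelinating Schwann cell markers fell, from 89025 to 105183 CPM in sham to 6663 to 10235 CPM in CCI. Pmp22, a myelin protein of peripheral nerve, was at 15985 CPM on average in sham, which fits the labelled tissue. Of 8 repair Schwann cell markers 5 rose and 1 fell, with sums of 160 to 203 CPM and 470 to 892 CPM. All 3 perineurial markers fell, from 3922 to 5442 CPM to 578 to 850 CPM. Fibroblast markers divided, with 2 higher, 2 lower and 5 not past the threshold of 9, and overlapping sums of 27522 to 38439 CPM and 24241 to 34475 CPM. Endothelial markers rose in 7 of 9 cases and fell in 1, with sums of 852 to 924 CPM and 1333 to 1477 CPM, and smooth muscle and pericyte markers rose in 6 of 8 and fell in 2, with sums of 1162 to 1220 CPM and 1404 to 1565 CPM. Of 5 adipocyte markers 2 were called higher and 3 did not pass, with a median log2 fold change of -0.16. Their sums overlapped, at 224 to 587 CPM in sham and 323 to 496 CPM in CCI. Lymphocyte markers rose in 3 of 5 tested, with sums of 0.377 to 1.46 CPM and 9.64 to 11.7 CPM. None of the 9 muscle markers passed. No marker of these lists was at 0 in all libraries. The part of these cell types in the changes of Igf1, Igf2r, Igfbp4, Igfbp6 and the other members was not tested.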

How the data were processed

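The authors deposited raw counts per gene and FPKM values, with 1 column per library, which the file headers name as in the sample titles. The build Rnor_6.0 and the tools DESeq2, R 3.2.0, HTSeq, HISAT2 and fastp are named in the submitters' processing notes, with no role. Annotation and strand setting: not given in the sources used here, and reads of overlapping genes cannot be told apart. In RefSeq (GRCr8), Igfbp7 overlaps Polr2b (65.8 CPM in sham, 78.6 in CCI), Igf1r overlaps Pgpep1l and Igf2 overlaps LOC102548568, and non-coding RNAs overlap Igf1r, Igf2r, Igfbp4 and Igfbp7. The deposited counts summed to 42541217 to 54559292 per library, and 3 counts equalled 0.0518 to 0.0771 CPM. Intervals and floors cover counting error only.

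The deposited counts were tested with edgeR 4.0.16 in R 4.3.3 (filterByExpr, TMM scaling, robust quasi-likelihood F test, CCI against sham with no covariates), with p-values adjusted over all 15763 tested genes by the Benjamini-Hochberg method. The fit was tested on simulated data in which few genes changed, so that test does not cover a change as broad as the one seen here. Log2 fold changes are CCI against sham. Each SE was derived from the coefficient and its F statistic. CPM are TMM-normalised. For levels between genes they were divided by the gene length that follows from the deposited counts and FPKM. Ratios were compared by exact permutation tests. Alternatives used DESeq2 1.42.0, limma 3.58.1, other scalings and filters, a replicate block and fewer libraries. Those without sham 2 and 3 and without sham 1 and 4 were chosen after seeing the data.

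The members and gene lists were chosen with earlier results of these data known. Named genes are all members, and from each pathway list the 2 largest called rises and falls of at least 1 CPM on average, the members that went against most of their list, and all genes of lists of up to 5. From marker lists they are among the 2 highest in each group, named only where the text needs them. Within groups, library pairs differed beyond counting error (chi-square over degrees of freedom, 28.5 to 77.8), so none were merged.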

Additional observations from a re-analysis of the deposited data

Results flagged for a closer look

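Of 26 groups of 4 libraries, formed by the 10 members and 3 ratios in CCI and in sham, 2 held a library whose distance to its nearest neighbour took up an unusually large part of the range. Chance alone gives about 1 such case in 20 groups. Igfbp2 was at 6.17 CPM in CCI 4, against 1.80 to 2.07 CPM in the other CCI libraries. The ratio of Igf1r to Insr was 0.825 in CCI 3, against 0.673 to 0.697 in the other CCI libraries.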

How the results depend on the processing

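The 4 members called higher numbered 4 in all alternatives except when genes under 5 CPM were dropped, which removed Igfbp2. Members called lower numbered 2 to 4. Genes called numbered 9769 to 11197 in all alternatives except that same filter (8855, with fewer genes tested). The share of calls higher in CCI was 52.9%, and 66.9% with library totals only. Igfbp3 turned from -1.57 to 0.13 without sham 2 and 3. Igfbp5, not called in any setting, turned from 0.00 to -0.029 with DESeq2 size factors in edgeR and in DESeq2, -0.019 with no filter, -0.048 with the 5 CPM filter, -1.1e-05 with the replicate block, -0.013 without CCI 2 and sham 2, -0.052 without sham 1 and 4, and between -0.14 and 0.080 without 1 library. The log2 ratio differences were 2.26 (Igf1 to Igf2), -2.57 (Igf1r to Igf2r) and -0.39 (Igf1r to Insr) with the replicate block too, but 4 pairs allow no exact p below 0.125. That of Igf1r to Insr ran from -0.46 to -0.36 without 1 library. With counts in place of length-scaled levels, binding proteins exceeded ligands 9.63 times in sham and 2.62 times in CCI. The cause of these changes was not tested, apart from the filter, the small number of pairs and the long Igf1 and Igf2 transcripts (7486 and 5504 bases), which follow from how the values are built. Deviations of equally numbered libraries correlated at 0.119, 0.279, -0.0208 and 0.0234, and CCI 1 correlated best with sham 4 (0.129), so the numbers were not taken as pairs. With them as a block, 10505 genes and the same numbers of members (4 higher, 3 lower) were called.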
